A study of Mus musculus with 21 samples.

Results

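Cytosolic ribosomal proteins are the protein components of the 40S and 60S subunits of the ribosome. In the platform annotation they are the genes named Rpl or Rps followed by a digit, together with Rpsa, Rplp0, Rplp1 and Rplp2, leaving out the S6 kinases (Rps6k). A probe set counted when it listed 1 gene symbol only, and each gene was represented by its probe set with the highest mean over all arrays. This gave 49 of the 12393 genes measured, 26 named for the large and 23 for the small subunit. Of the 49, 42 are named as ribosomal proteins proper, 6 are paralogs (Rpl22l1, Rpl39l, Rpl3l, Rpl7l1, Rps27l and Rps4l) and 1 is a pseudogene (Rps15a-ps6). A further 27 ribosomal protein genes, Rpl5 and Rplp1 among them, occur only on probe sets that list several symbols and are not members.

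The cells were RAW 264.7, a mouse tumour line with macrophage features. They were untreated or were exposed for 2 h to amorphous silica in serum-free medium. Particles of 10 nm were given at 5 (low), 20 (mid) and 50 µg/ml (high), and particles of 500 nm at 250 (low), 500 (mid) and 1000 µg/ml (high). Each of the 7 groups had 3 Affymetrix arrays, 21 in all. The labels do not say whether untreated cells were also moved to serum-free medium. They do not say either that the 3 replicates were separate cultures, and p-values then reflect array-to-array spread alone, possibly technical. In such bulk RNA, fewer cells that make a transcript and less of it per cell cannot be told apart.

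The large subunit carries the site where amino acids are joined and the small subunit decodes the message. Cells make the ribosomal proteins in near equal amounts, and most of their messenger RNAs begin with a run of pyrimidines, the TOP motif, through which mTORC1 signalling controls their translation. Their messages are abundant and long-lived in growing cells. The arrays measured messenger RNA only, so translation of these messages was not measured.

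Promoter sequences were searched for features that the selection of these genes by name did not use. RefSeq promoters (build GRCm38.p6, 250 bases before to 50 after the annotated start) were given for 42 of the 49 members. The windows below run from 100 bases before to 12 bases after the start and are written in the direction of transcription. They belong to the 4 members whose signal changed at the 10 nm high dose and to the 3 whose signal varied least within groups. Capitals mark the letters CCGGAAG or CTTCCGG, the core that ETS factors such as GABP bind, AAGATGG or CCATCTT, the core of YY1, TATAAA or TTTATA, the TATA box, and a run of at least 5 pyrimidines that begins with C at the start itself. For Rps27l and Rpl3l, each with more than 1 listed start, the first is shown.
Rpl12, chr2:32961612-32961723, plus strand: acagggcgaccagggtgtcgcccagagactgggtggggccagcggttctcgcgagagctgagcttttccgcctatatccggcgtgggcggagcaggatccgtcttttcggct
Rpl14, chr9:120571417-120571528, plus strand: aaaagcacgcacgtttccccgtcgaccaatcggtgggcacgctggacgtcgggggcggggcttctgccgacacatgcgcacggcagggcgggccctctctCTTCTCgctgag
Rps27l, chr9:66945986-66946097, plus strand: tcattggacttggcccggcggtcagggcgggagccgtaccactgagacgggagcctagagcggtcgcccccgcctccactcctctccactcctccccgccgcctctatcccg
Rpl3l, chr17:24727726-24727837, plus strand: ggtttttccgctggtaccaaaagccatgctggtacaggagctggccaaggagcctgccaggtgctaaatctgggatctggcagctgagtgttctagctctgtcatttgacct
Rpl38, chr11:114668480-114668591, plus strand: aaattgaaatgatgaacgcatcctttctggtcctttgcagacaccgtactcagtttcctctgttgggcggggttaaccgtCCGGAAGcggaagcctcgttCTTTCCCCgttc
Rpl13a, chr7:45128734-45128845, minus strand: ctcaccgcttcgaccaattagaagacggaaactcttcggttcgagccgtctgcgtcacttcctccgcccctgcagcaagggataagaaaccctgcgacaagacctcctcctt
Rpsa, chr9:120127666-120127777, plus strand: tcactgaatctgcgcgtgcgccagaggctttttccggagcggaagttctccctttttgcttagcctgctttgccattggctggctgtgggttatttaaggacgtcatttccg

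Among these windows only that of Rpl38 held both an ETS core and a pyrimidine start, and that of Rpl14 held a pyrimidine start. Over the whole promoters, on both strands, the ETS core was in 19 of the 37 ribosomal proteins proper with an entry (51.4%), against 9.12% of all 27025 promoters. These counts use 1 start per gene, the first listed, and a further listed start of Rpl22 holds both the YY1 core and the TATA box. The YY1 core, which can share its AAG with the ETS core, was in 5 (13.5% against 6.48%). The TATA box was in 4 (10.8% against 14.16%). A pyrimidine start, C first and C or T through the first 5 bases, was at 8 (21.6% against 2.49%). That count depends on the annotated start, which can lie a few bases from the one the cell uses. Rpl12, with the most repeated fall described below, had neither the ETS core nor the pyrimidine start in its window, and no letters found or missing here say which factor acts on a gene.

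All 49 members had a value on all 21 arrays. Deposited values were read as log10 and turned into log2 for this account, a base taken from the values. The cells carried macrophage transcripts, with 11 of 12 macrophage markers above the median of all genes in untreated cells, while 1 of 7 neutrophil markers and 0 of 20 T cell, B cell, fibroblast and epithelial markers were. The spread of an array's values was smallest in replicate 3 of all 7 groups. Untreated replicate 3 and 10 nm high replicate 3 stood apart. On these 2 arrays the 3' probe sets of the Gapdh and actin controls exceeded the 5' ones by 1.15 and 0.95 log2, against 0.14 to 0.55 on the other 19, a gap that is commonly read as a sign of RNA shortened from its 5' end.

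The ribosomal protein messages were among the brightest on the arrays and differed little between the 7 groups. Mean signal lay above log2 12 for 36 of the 49 members and for 207 of the other genes, and the highest single value in the whole table was 14.43. Near that upper end an array can fail to register a rise, which was not tested. Between the lowest and the highest group mean, the 36 bright members spanned 0.065 to 0.69, with a median of 0.15. Their residual SD within groups had a median of 0.12, against 0.18 over all genes. A span over 7 group means and an SD are unlike measures, so these figures do not by themselves show a difference between groups.

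In limma's moderated F test over the 7 groups, 1 of 49 members passed at an adjusted p under 0.05 (Benjamini-Hochberg over 12393 genes, as for every adjusted p below). It was Rpl12 (adjusted p = 0.00552). Of all genes tested, 16.2% passed, and after quantile normalization 15.4% did, again with Rpl12 as the 1 member (adjusted p = 0.0335). The next members by p were Rpl3l (adjusted p = 0.100), Rps27l (0.134), Rpl14 (0.200), Rps6 (0.282), Rpl39 (0.293), Rps15a-ps6 (0.327), Rpl22l1 (0.469), Rps27 (0.562) and Rps18 (0.638). Of these 10, the bright ones were Rps27l, Rpl22l1 and Rps18.

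Against untreated cells, 0 members were called by limma at the 10 nm low dose, where 0.767% of all genes were, and 2 had an unadjusted p under 0.05. The 10 nm mid dose had 1 lower (10.6% of all genes called, 7.39% lower). With the 10 nm high dose 1 was higher and 3 were lower, against 20.2% of all genes, 7.58% higher and 12.6% lower. The 500 nm doses gave 0 at the low (0.428% of all genes; 3 members with unadjusted p under 0.05), 0 at the mid (2.77%; 2 members) and 1 lower at the high dose (15.3%, 10.0% lower). After quantile normalization the member counts were 0, 1 and 1 for the 10 nm doses (0.936%, 9.42% and 15.8% of all genes) and 0, 0 and 1 for the 500 nm doses (0.541%, 2.81% and 13.2%), with Rpl12 as the member each time. In each of the 6 comparisons 0 members moved by 1 log2 unit, a doubling, or more. Where a member was called, genes above a mean of log2 12 were called less often than dimmer ones. At the 10 nm high dose 2.78% of the 36 bright members were called, and 7.73% of the 207 other bright genes. Of the 13 dimmer members 23.1% were, against 20.5% of other dimmer genes. The 10 nm mid dose gave 0% and 1.93%, then 7.69% and 10.8%. The 500 nm high dose gave 0% and 3.38%, then 7.69% and 15.6%. Members were not tested against genes of like signal.

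Sizes of change were small in both subunits. The median log2 change of the 49 members was 0.00 at the 10 nm high dose (all genes 0.04) and 0.03 at the 500 nm high dose (all genes 0.07). The median size of the change, whatever its sign, was 0.062 for members and 0.241 for all genes at the 10 nm high dose, and 0.089 and 0.211 at the 500 nm high dose. Among genes with mean signal above log2 12 it was 0.054 for the 36 members and 0.099 for the 207 others at the 10 nm high dose, and 0.085 and 0.135 at the 500 nm high dose. The 22 large and 20 small subunit proteins proper had medians of 0.00 and -0.01 at the 10 nm high dose and of 0.04 and -0.01 at the 500 nm high dose. The 95% interval of the change lay within 0.5 log2 either way for 36 of 49 members at the 10 nm high dose (38.3% of all genes) and for 33 at the 500 nm high dose (42.8%). For the remaining 13 and 16 members a change of 0.5 was not kept out by these arrays.

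**Figure D1:**
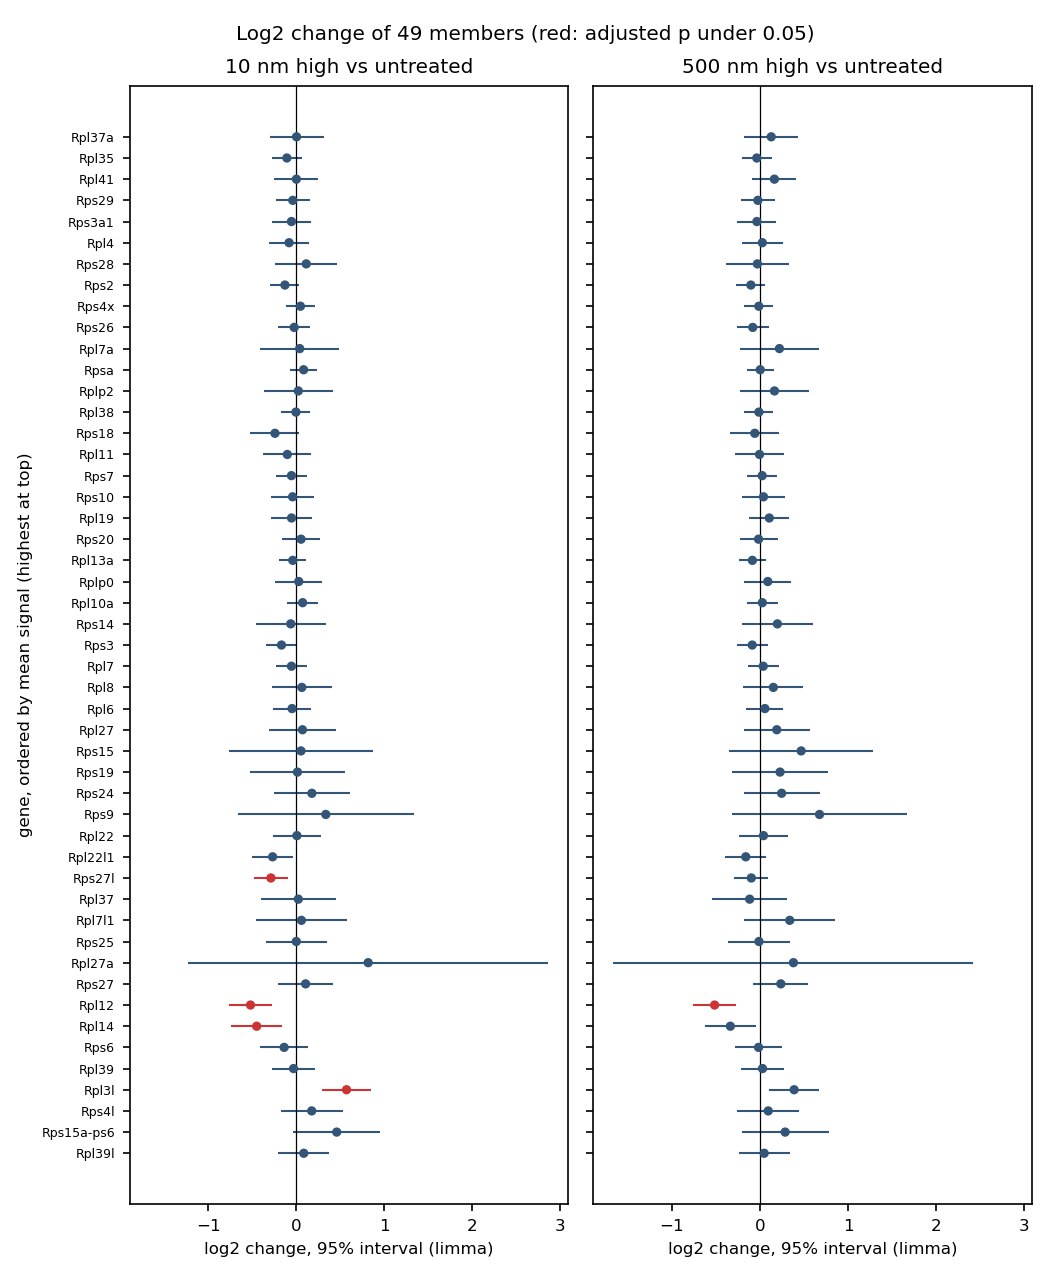
Log2 change of each of the 49 members against untreated cells at the 10 nm high dose (left) and the 500 nm high dose (right), with limma's 95% interval, genes ordered by mean signal and called ones in red. Most intervals of the bright genes are narrow and hold 0, and Rpl12 lies below 0 in both panels with changes of -0.52 and -0.52.

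Whether these messages stayed level depended on how arrays were scaled. When each array was set to a common median and SD, the members' median change became 0.37 at the 10 nm high dose, with 21 members called higher and 1 lower (21.2% of all genes called), and 0.31 at the 500 nm high dose, with 15 higher and 1 lower (18.3%). Quantile normalization gave 0.02 and 0.05, and centring arrays on their medians gave 0.11 and 0.12, beside medians of all genes of 0.14 and 0.17. The SD over genes ran from 2.41 to 2.57 at the 10 nm high dose and from 2.58 to 2.64 in untreated cells, so that setting the SDs equal lifts signals at the bright end of those arrays by its own construction. A small common rise or fall of all bright messages cannot be told apart from scaling in these data.

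**Figure D2:**
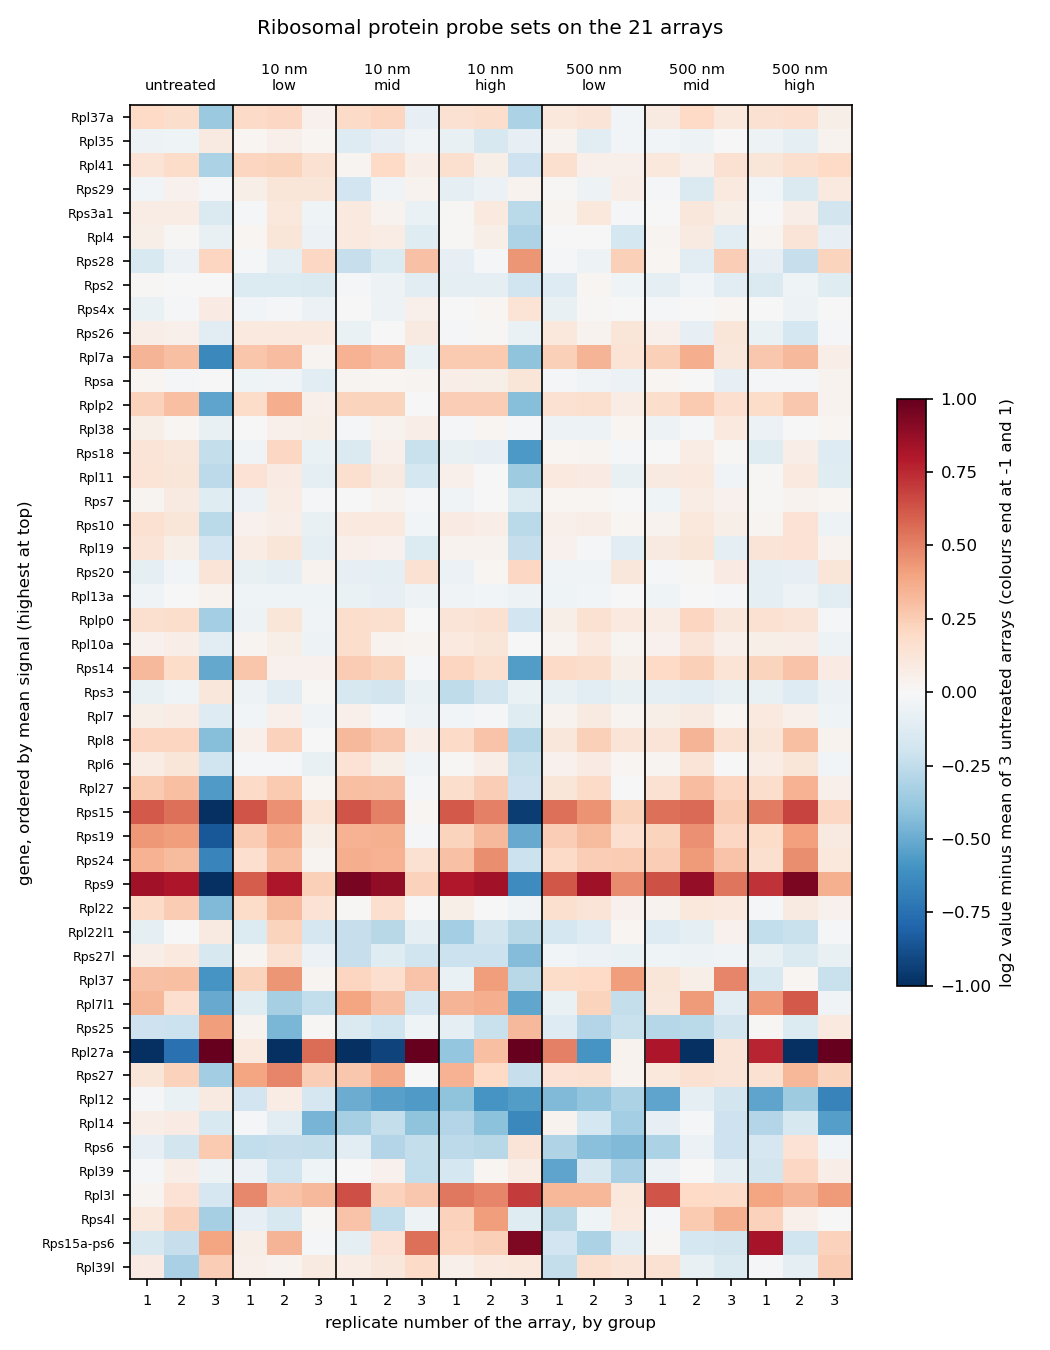
Log2 value of each member on each array minus its mean over the 3 untreated arrays, with genes ordered by mean signal and arrays by group and replicate number; colours end at -1 and 1. Columns of replicate 3 in untreated and 10 nm high cells carry most of the blue among bright genes, and the Rpl12 row is blue in most treated arrays.

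Rpl12, a large subunit protein at the base of the stalk that recruits elongation factors, was lower in 3 treated groups. Its log2 signal was 8.23, 8.19 and 8.34 on the untreated arrays. It was 7.75, 7.71 and 7.68 at the 10 nm mid dose, and 7.85, 7.66 and 7.69 at the 10 nm high dose. The 500 nm high dose gave 7.72, 7.90 and 7.58. None of these 9 arrays reached the untreated range. The 10 nm low dose gave 8.06, 8.32 and 8.08 and overlapped untreated cells. The 500 nm low dose gave 7.81, 7.86 and 7.94, and the 500 nm mid dose 7.72, 8.16 and 8.06, both below the untreated arrays.

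Against untreated cells (8.25 ± 0.08, SD, n = 3), Rpl12 fell by 0.54 at the 10 nm mid dose (SE 0.12, 1.45-fold lower, limma adjusted p = 0.00389). It fell by 0.52 at the 10 nm high dose (SE 0.12, 1.43-fold lower, adjusted p = 0.00355) and by 0.52 at the 500 nm high dose (SE 0.12, 1.43-fold lower, adjusted p = 0.00417). The log2 changes of -0.39 at the 500 nm low dose (adjusted p = 0.321) and -0.27 at the 500 nm mid dose (adjusted p = 0.328) were not called. These comparisons share their 3 untreated arrays. Without replicate 3 of every group the Rpl12 change was -0.48 at the 10 nm mid dose (adjusted p = 0.0545) and -0.40 at the 500 nm high dose (adjusted p = 0.0861), and with only the compared groups in the fit the adjusted p was 0.0550 at the 10 nm high and 0.0559 at the 500 nm high dose. Over 17 alternatives each, adjusted p ran from 0.000770 to 0.0545 at the 10 nm mid, from 4.55e-05 to 0.0550 at the 10 nm high and from 0.000298 to 0.0861 at the 500 nm high dose.

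The Rpl12 probe set is a dim one. A pair of bright probe sets list Rpl12 together with predicted genes, so they could not be assigned. Their log2 changes were 0.10 and 0.10 at the 10 nm mid dose, -0.06 and 0.07 at the 10 nm high dose, and 0.15 and 0.09 at the 500 nm high dose, and 0 of the 6 was called. The fall was therefore seen on the one probe set with Rpl12 as its sole symbol and not on the brighter ones that list it.

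Rpl14, another large subunit protein, was called lower at the 10 nm high dose. Its log2 signal was 8.04, 8.04 and 7.81 untreated and 7.67, 7.55 and 7.32 at the 10 nm high dose, without overlap. It fell by 0.45 (SE 0.14, adjusted p = 0.0267, 1.36-fold lower). The lowest array of either group was replicate 3, and Rpl14 was lowest in replicate 3 in all 7 groups. After quantile normalization the change was -0.27 (adjusted p = 0.0887), and over 17 alternatives 9 gave no call, with adjusted p from 0.000262 to 0.127. Leaving out untreated replicate 1 (adjusted p = 0.0833) or 2 (0.0896), or 10 nm high replicate 2 (0.0523) or 3 (0.127), ended the call. The 5 bright probe sets that list Rpl14 with its pseudogene Rpl14-ps1 changed by -0.08 to 0.01 at that dose, and 0 was called.

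Rps27l, a paralog of Rps27 that p53 is known to induce, was lower at the 10 nm high dose on a bright probe set. Its log2 signal was 12.37, 12.40 and 12.14 untreated and 12.09, 12.09 and 11.87 at the 10 nm high dose. All 3 treated arrays lay below the untreated ones, with untreated replicate 3 the nearest to them. The change of -0.29 (SE 0.09, 1.22-fold lower) was called (adjusted p = 0.0349). Its other probe sets changed by -0.27 (adjusted p = 0.171) and -0.29 (adjusted p = 0.0209). The change was -0.25 after quantile normalization (adjusted p = 0.0591), and with arrays set to a common median and SD it turned to 0.06 (adjusted p = 0.689). Leaving out untreated replicate 1 (adjusted p = 0.113) or 2 (0.135) or 10 nm high replicate 3 (0.162) ended the call, and over 17 alternatives 7 gave none, with adjusted p from 0.000295 to 0.689. Its 10 nm mid change was -0.18 (adjusted p = 0.252).

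Rpl3l, a paralog of Rpl3 known from striated muscle, was higher at the 10 nm high dose on a probe set near the bottom of the scale. Its log2 signal was 4.73, 4.84 and 4.53 untreated and 5.22, 5.19 and 5.40 at the 10 nm high dose. The rise was 0.57 (SE 0.13, 1.49-fold, adjusted p = 0.00509), and the groups did not overlap. After quantile normalization it was 0.37 (adjusted p = 0.0903). Without the 2 arrays that stood apart it was 0.42 (adjusted p = 0.0847). Over 17 alternatives 13 gave a call, with adjusted p from 0.00104 to 0.0903. The change at the 500 nm high dose was 0.39 (adjusted p = 0.0578). With centred arrays Rpl3l was also called higher at the 10 nm mid dose (adjusted p = 0.0340, with 0.0167 to 0.363 over 17 alternatives) and at the 500 nm high dose (0.0207, with 0.0191 to 0.331). At such low signal the probe set may read other transcripts, which was not tested.

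**Figure D3:**
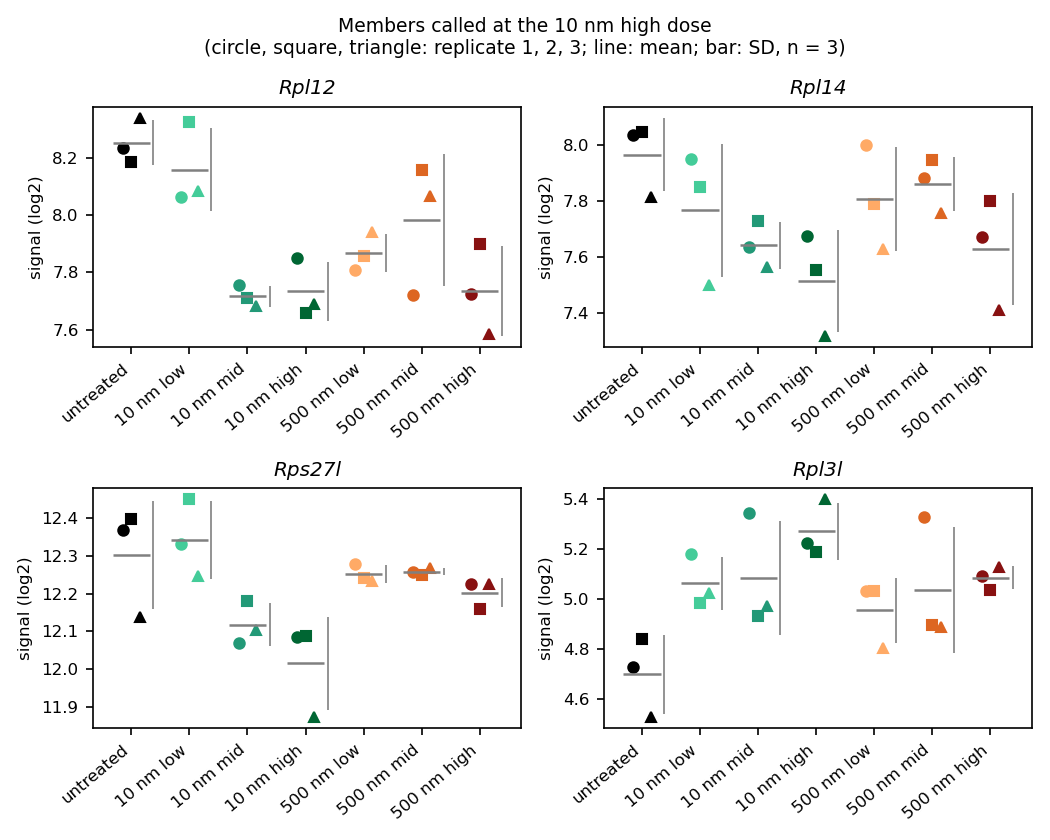
Log2 signal of Rpl12, Rpl14, Rps27l and Rpl3l on each of the 21 arrays by group, with symbols for the replicate number, a line for the group mean and a bar for the SD (n = 3); the axes do not start at 0. Rpl12 lies at or below 7.90 on all arrays of the 10 nm mid, 10 nm high and 500 nm high groups and at or above 8.19 on the untreated arrays.

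The other paralogs and the pseudogene did not pass the test at either high dose. Rpl22l1, which can stand in for Rpl22, had a log2 signal of 12.36 ± 0.09 untreated and 12.09 ± 0.08 at the 10 nm high dose (SD, n = 3), a change of -0.27 (adjusted p = 0.0956). Its change at the 500 nm high dose was -0.16 (adjusted p = 0.349). Its parent Rpl22 changed by 0.01 and 0.04. Rpl7l1, a large subunit paralog, changed by 0.06 (adjusted p = 0.880) and 0.34 (adjusted p = 0.376), with group SDs of 0.44 untreated and 0.50 at the 10 nm high dose, and its parent Rpl7 by -0.05 and 0.04. Rpl39l, best known from testis, had a low signal (3.31 ± 0.30 untreated, SD, n = 3) and changed by 0.09 and 0.05. Its parent Rpl39 changed by -0.03 and 0.03 on a dim probe set, and by 0.00 and -0.05 on a bright one that lists it with another symbol. Rps4l changed by 0.18 and 0.09, and its X-linked relative Rps4x by 0.05 and -0.01. The pseudogene Rps15a-ps6 changed by 0.46 (adjusted p = 0.169) and 0.28 (adjusted p = 0.433). Rps27, the parent of Rps27l, changed by 0.11 and 0.24 on a dim probe set. A bright one that lists Rps27 with another symbol changed the other way, by -0.13 and -0.13, and was not called. Rpl3 and Rps15a, the parents of Rpl3l and Rps15a-ps6, are not members.

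Several members are known for roles beyond the ribosome. Rpl13a, which in macrophages is released from the ribosome to silence inflammatory messages, lay at 13.50, 13.54 and 13.57 untreated, 13.50, 13.51 and 13.48 at the 10 nm high dose and 13.44, 13.49 and 13.42 at the 500 nm high dose. Its changes were -0.04 (95% interval -0.19 to 0.11) and -0.09 (-0.24 to 0.06). Rpl11, which binds Mdm2 when ribosome assembly is disturbed, changed by -0.10 (-0.37 to 0.17) and -0.01 (-0.28 to 0.27). Rps3, also a partner of NF-kB and a DNA repair factor, changed by -0.17 (-0.34 to 0.01) and -0.09 (-0.26 to 0.09). None of these 3 was called at either high dose, but with arrays set to a common median and SD Rpl11 was called higher at both. A dim probe set that lists Rpl11 with another symbol changed by -0.35 at the 10 nm high dose (adjusted p = 0.133). At the 500 nm high dose it fell by 0.49 and was called (adjusted p = 0.0445, over all 22626 probe sets).

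Rpsa, also known as a laminin receptor, lay at 13.75, 13.71 and 13.72 untreated and at 13.80, 13.79 and 13.85 at the 10 nm high dose. The treated arrays all lay above the untreated ones, yet the change of 0.08 (95% interval -0.07 to 0.24) was not called (adjusted p = 0.423). The acidic stalk protein Rplp0 changed by 0.03 and 0.09 at the 10 nm and 500 nm high doses, and Rplp2 by 0.02 and 0.16, with none of the 4 called. With arrays set to a common median and SD both were called higher at both high doses, and Rpsa at the 10 nm one. Rps6, the substrate of the S6 kinases, was read by a dim probe set at 7.20 ± 0.23 untreated, 7.06 ± 0.23 at the 10 nm high dose and 7.18 ± 0.16 at the 500 nm high dose (SD, n = 3), changes of -0.14 and -0.02. Its 95% intervals were -0.41 to 0.13 and -0.29 to 0.25. The brightest probe set that lists Rps6, together with its pseudogene, changed by -0.04 and 0.02 and was not called.

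The steadiest members within groups were Rpl13a (residual SD 0.023), Rpsa (0.032) and Rpl38 (0.049), and the most variable were Rpl27a (1.38), Rps9 (0.668) and Rps15 (0.542). In the last 3 the spread lay between replicates of a group. Rps9, a small subunit protein, read 13.15, 13.13 and 10.67 in untreated replicates 1, 2 and 3. In the 10 nm high group it read 13.11, 13.15 and 11.69. Replicates 1 and 2 were nearly equal, and replicate 3 was lowest in all 7 groups. Rps15 read 13.40, 13.34 and 11.62 untreated and 13.40, 13.29 and 11.83 at the 10 nm high dose. Rps19, mutated in Diamond-Blackfan anaemia, read 13.30, 13.29 and 12.02 untreated and 13.09, 13.19 and 12.37 at the 10 nm high dose, so all 3 genes share the pattern. The 500 nm high dose exceeded untreated by 0.68 for Rps9 (SE 0.48), which was not called. The steadiness of Rpl13a is that of its member probe set. Another bright probe set of Rpl13a had SDs of 0.58 untreated and 0.47 at the 10 nm high dose (n = 3). In the same groups its dimmer ones had SDs of 0.21 and 0.17, and of 0.05 and 0.03.

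Rpl27a ran the other way on untreated and 10 nm high arrays, with 7.58, 8.51 and 11.69 untreated and 8.87, 9.56 and 11.79 at the 10 nm high dose. Its change of 0.82 at that dose had a 95% interval of -1.23 to 2.86 and was not called (adjusted p = 0.562). A bright probe set lists Rpl27a with other symbols and could not be assigned. It was steadier, at 13.65 ± 0.05 untreated and 13.50 ± 0.15 at the 10 nm high dose (SD, n = 3). Rps20 and Rps28 were highest in replicate 3 in all 7 groups. In all, 12 of 49 members (24.5%) were lowest in replicate 3 in each of the 7 groups, against 9.14% of all genes. They were Rpl4, Rpl6, Rpl7, Rpl7a, Rpl11, Rpl14, Rpl19, Rplp2, Rps9, Rps14, Rps15 and Rps19.

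The drop was deepest on the 2 arrays that stood apart. The median over the 49 members was 13.02 on untreated replicate 3, against 13.41 and 13.43 on replicates 1 and 2, and 13.16 on 10 nm high replicate 3, against 13.40 and 13.44. Relative to the mean of replicates 1 and 2, 20 members (40.8%) were lower by over 0.3 log2 on the untreated array and 21 (42.9%) on the 10 nm high array, with 19 on both. Of all genes 17.8% and 22.3% were. One of the 2 arrays belongs to the untreated group, which enters all 6 comparisons against untreated cells. Without both, the members' median change was -0.05 at the 10 nm high dose, where Rpl12 and Rps27l were the called members (13.2% of all genes called), and at the 10 nm mid dose they were the called ones too (10.8%). The part of the 3' to 5' control gap in these values was not tested.

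**Figure D4:**
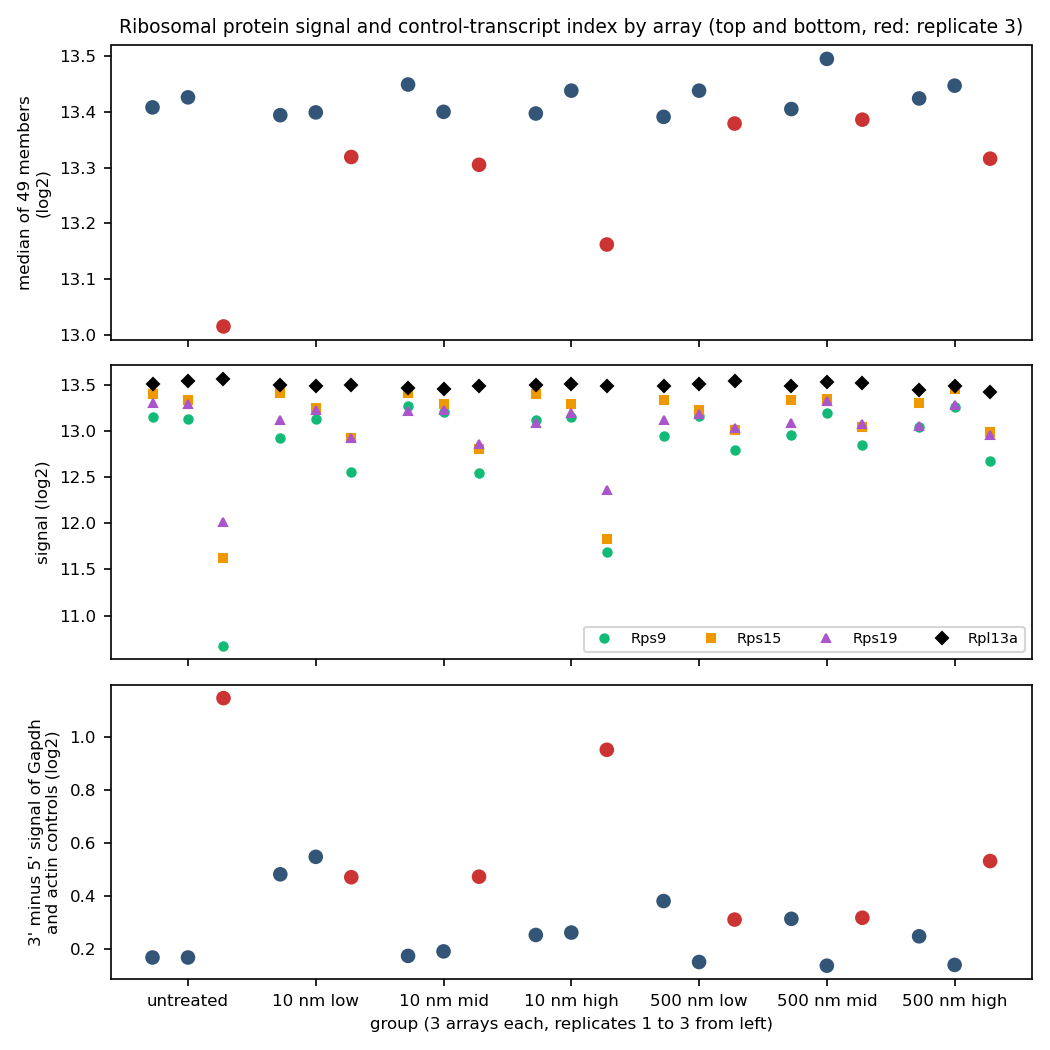
Top, median log2 signal of the 49 members on each array; middle, log2 signal of Rps9, Rps15, Rps19 and Rpl13a; bottom, log2 gap between 3' and 5' probe sets of the Gapdh and actin controls, with replicate 3 in red in the top and bottom panels. Untreated and 10 nm high replicate 3 have the lowest member medians, 13.02 and 13.16, and the widest gaps, 1.15 and 0.95, while the member probe set of Rpl13a is level on all arrays.

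Where no member was called, those with the smallest p were mostly dim. At the 10 nm low dose they were Rpl3l (0.36, SE 0.13, adjusted p = 0.444) and Rps27 (0.38, SE 0.15, adjusted p = 0.539). At the 500 nm low dose they were Rpl12, given above, and Rps6 (-0.39, SE 0.13, adjusted p = 0.459), and at the 500 nm mid dose Rpl3l (0.34, SE 0.13, adjusted p = 0.269) and Rpl12.

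The dose slopes used the 3 treated groups of a size, per doubling of dose. For 10 nm particles 2 members sloped down and 0 up (12.2% of all genes called, 9.05% downward), Rpl12 by -0.14 (SE 0.03, adjusted p = 0.0140) and Rps27l by -0.10 (SE 0.03, adjusted p = 0.0220). After quantile normalization the Rpl12 slope was -0.08 (adjusted p = 0.131) and that of Rps27l -0.10 (adjusted p = 0.0260), with 9.76% of all genes called. Without 10 nm low replicate 2 neither slope was called. The Rpl12 slope was also lost without 10 nm high replicate 2 (adjusted p = 0.0526), and that of Rps27l without 10 nm low replicate 1 (0.0587) or 10 nm high replicate 3 (0.0905). Adjusted p ran from 0.000734 to 0.131 and from 0.00226 to 0.796 over 20 alternatives each. With arrays set to a common median and SD the Rps27l slope was -0.01 (adjusted p = 0.796), and the called members were Rpl10a, Rplp0 and Rpsa, all upward (11.7% of all genes). With centred arrays Rpsa alone was called, upward (11.6%). For 500 nm particles limma called 0 members (8.2% of all genes, and 8.4% with again 0 members after quantile normalization), with 2 at an unadjusted p under 0.05. These were Rpl39 (0.18, SE 0.06, adjusted p = 0.0657) and Rps6 (0.18, SE 0.06, adjusted p = 0.0912), each with its lowest group mean at the 500 nm low dose. Rpl39 became called without 500 nm low replicate 2 or 500 nm high replicate 1, with adjusted p between 0.0243 and 0.306 over 17 alternatives. Rps6 was called in 5 of 17 alternatives, with adjusted p between 0.0133 and 0.269.

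The particle sizes were set against each other at equal nominal surface area (dose over diameter), which pairs the low doses and the 10 nm mid with the 500 nm high dose, and at the high doses, where nominal area differs. Limma called 0 members in each, against 0.0888%, 2.85% and 7.52% of all genes, and 0 after quantile normalization, against 0.0888%, 3.57% and 8.7%. An unadjusted p under 0.05 was reached by 1 member at the low doses, Rpl12 (0.29, adjusted p = 1.0), and by 0 in the other pairs. The members' median differences, 10 nm minus 500 nm, were 0.00, -0.01 and -0.08. The 95% interval lay within 0.5 log2 either way for 41, 42 and 39 of the 49 members (72.3%, 61.8% and 54.0% of all genes). The smallest p at the high doses was that of Rps27l (-0.19, 95% interval -0.38 to 0.01, adjusted p = 0.261), followed by Rpl19 (-0.16, -0.39 to 0.07). At the 10 nm mid against the 500 nm high dose Rpl37 (0.34, -0.09 to 0.77) and Rps6 (-0.20, -0.47 to 0.07) came first, and at the low doses Rpl39 (0.24, -0.01 to 0.48) followed Rpl12. For the members outside these counts a difference of 0.5 between sizes was not kept out.

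Choosing the brightest probe set of each gene left other readings aside. In all, 203 probe sets list a ribosomal protein gene: the 49 above, 52 others of the members, and 102 that list several symbols and name no single gene. Each of the 22626 non-control probe sets was also tested singly, an alternative chosen after the data were seen, and the split at log2 12 was likewise made then. Of the 137 ribosomal protein probe sets with mean signal above log2 12, limma called 2, both of Rps27l and both lower, at the 10 nm high dose, 0 at the 500 nm high dose and 0 between sizes. Over all probe sets 17.6%, 14.3% and, between the high doses, 6.72% were called. Among all 497 probe sets with mean signal above log2 12 the shares were lower, at 6.44%, 4.02% and 2.62%. With arrays set to a common median and SD, 8 of the 137 were higher and 0 lower at the 10 nm high dose (15.8% of all probe sets called), and 23 were higher and 0 lower at the 500 nm high dose (15.7%).

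The other 66 ribosomal protein probe sets had a mean signal of log2 12 or below. At the low doses 0 of them were called with 10 nm particles and 2, both lower, with 500 nm particles (0.61% and 0.33% of all probe sets of that signal). At the mid doses 1 was higher and 4 lower, and 0 were higher and 4 lower (9.38% and 2.52%). With the 10 nm high dose 3 were higher and 5 lower, beside 6.5% and 11.1% of all probe sets. With the 500 nm high dose 1 was higher and 18 were lower, beside 4.46% and 9.86%, and of all probe sets of that signal 14.6% were called. After quantile normalization 1 was higher and 13 were lower (12.6% of all probe sets called), and without replicate 3 of every group 0 were higher and 12 lower (11.3%). Between the high doses 8 were higher with 10 nm particles and 0 lower (3.66% of all probe sets higher), and 4 and 0 at the 10 nm mid against the 500 nm high dose (1.98% higher, 2.78% called). Of the 137 bright ones 0 were called in either comparison of sizes. Whether the 66 as a group differed between doses or sizes was not tested.

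**Figure D5:**
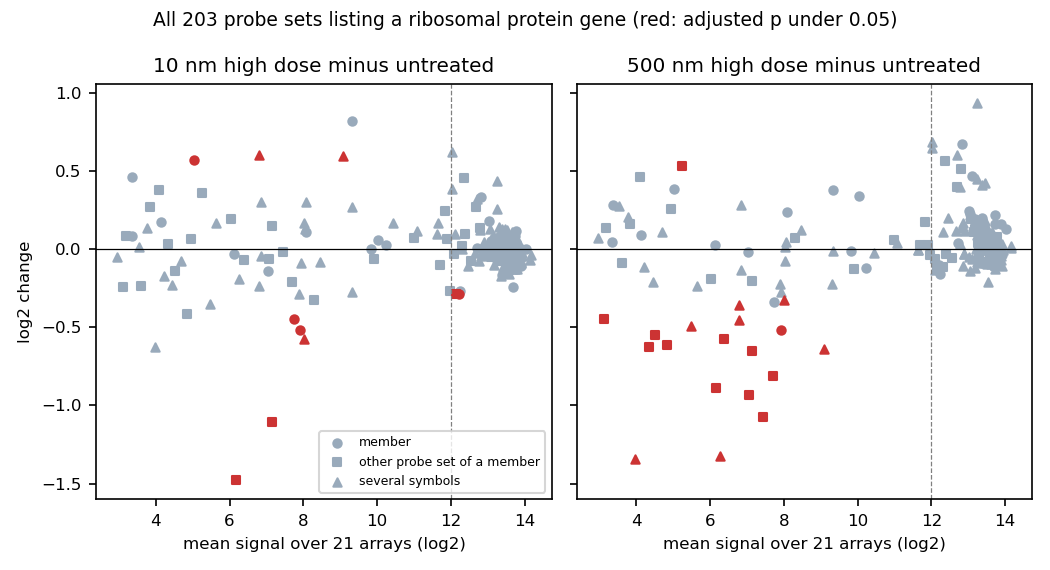
Log2 change of the 203 probe sets that list a ribosomal protein gene, at the 10 nm high dose (left) and the 500 nm high dose (right), against mean signal over the 21 arrays, with the dashed line at log2 12, symbols for the 3 kinds of probe set and called ones in red. Right of the line the 500 nm panel has no red point, and left of it 18 red points lie below 0 and 1 above.

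A few of these dim probe sets are named with their values, which were known when they were chosen. For Rps24, a small subunit protein, a dim probe set read 6.88 ± 0.27 untreated, 5.40 ± 0.34 at the 10 nm high dose and 5.99 ± 0.27 at the 500 nm high dose (SD, n = 3), changes of -1.48 and -0.89 on the log2 scale that were both called (adjusted p = 2.46e-05 and 0.00307). The member probe set of Rps24 changed by 0.18 and 0.24 and was not called. For Rpl22 a dim probe set went from 7.62 ± 0.14 to 6.52 ± 0.25 and 6.97 ± 0.18, with changes of -1.11 (adjusted p = 0.000120) and -0.65 (adjusted p = 0.0111), while its member probe set changed by 0.01 and 0.04. Both genes thus gave unlike readings from their dim and bright probe sets at both particle sizes.

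Other dim probe sets were lower with 500 nm particles alone among the high doses, and the difference between sizes was itself called. For Rpl41, the smallest ribosomal protein, one read 7.82 ± 0.41 untreated, 7.80 ± 0.33 at the 10 nm high dose and 6.74 ± 0.14 at the 500 nm high dose (SD, n = 3), and the sizes differed by 1.06 (SE 0.19, adjusted p = 0.00162). For Rps9 one read 7.34 ± 0.31, 7.28 ± 0.26 and 6.41 ± 0.39, with a difference of 0.87 (SE 0.19, adjusted p = 0.00815). A probe set listing Rpl3 with other symbols moved in opposite directions, from 8.96 ± 0.11 to 9.56 ± 0.09 and 8.32 ± 0.07, and one listing Rps13 with others from 6.84 ± 0.10 to 7.44 ± 0.03 and 6.48 ± 0.15. Which transcript form or other sequence these dim probe sets read was not tested, and no probe positions were used.

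The wider translation machinery was described from 6 lists, chosen with earlier results of these data known. Their counts stand beside 20.2% of all genes called at the 10 nm high dose and 15.3% at the 500 nm high dose. Of 23 measured genes of translation factors and other TOP messages, 2 were higher and 1 lower at the 10 nm high dose, and 0 and 2 at the 500 nm high dose, with medians of -0.02 and 0.05. Eif3a, a subunit of an initiation factor, rose by 0.42 (SE 0.11, adjusted p = 0.0154) and Vim, a cytoskeletal TOP message, by 0.27 (adjusted p = 0.0432) at the 10 nm high dose. Eif4b, a helper of the initiation helicase, fell by 0.27 (adjusted p = 0.0201) and 0.24 (adjusted p = 0.0449) at the high doses, and Eif4a2, a form of that helicase, fell by 0.37 at the 500 nm high dose (adjusted p = 0.0246). After quantile normalization Eif4b was not called at the 10 nm high dose (adjusted p = 0.0662).

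Of 46 ribosome biogenesis factors, 2 were higher and 2 lower at the 10 nm high dose and 3 and 2 at the 500 nm high dose (medians 0.05 and 0.11), beside 20.2% and 15.3% of all genes called. Rrp1b, a nucleolar processing factor, fell by 0.71 (SE 0.12, adjusted p = 0.000306) and 0.84 (SE 0.12, adjusted p = 6.29e-05), and Nop14, needed for the small subunit, rose by 0.41 and 0.41 (adjusted p = 0.00234 and 0.00218). Wdr12 fell by 0.44 and Wdr43 rose by 0.39 at the 10 nm high dose, while Ddx21, a nucleolar helicase, fell by 0.51 and Sbds, which readies the large subunit, rose by 0.48 at the 500 nm high dose.

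Of 25 genes of RNA polymerase I and III transcription, which make ribosomal RNA, 1 was higher and 5 lower at the 10 nm high dose and 1 and 1 at the 500 nm high dose, with 20.2% and 15.3% of all genes called. Polr3d, a core subunit of polymerase III, rose by 0.76 and 0.82 (adjusted p = 0.000886 and 0.000466). Polr3g, an alternative subunit of the same enzyme, fell by 1.42 at the 10 nm high dose (SE 0.16, 2.67-fold lower, adjusted p = 4.78e-06), as did Taf1b, a polymerase I factor, by 0.69 (adjusted p = 0.00369). Gtf3c2 fell by 0.47 at the 500 nm high dose (adjusted p = 0.0199), a call lost after quantile normalization (adjusted p = 0.0744). The list's median of -0.10 at the 10 nm high dose turned to 0.06 after quantile normalization.

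Of 28 genes of mTORC1 and S6 kinase signalling, 5 were higher and 3 lower at the 10 nm high dose and 4 and 5 at the 500 nm high dose, with medians of 0.04 and 0.13, where 20.2% and 15.3% of all genes were called. Sesn2, a leucine sensor that restrains mTORC1, rose by 1.72 (SE 0.24, 3.29-fold, adjusted p = 3.52e-05) and 1.50 (SE 0.24, 2.82-fold, adjusted p = 0.000172), whereas its relative Sesn1 fell by 1.97 (SE 0.14, adjusted p = 8.95e-09) and 1.62 (SE 0.14, adjusted p = 1.43e-07). Ddit4, another stress-induced inhibitor of mTORC1, rose by 1.54 at the 500 nm high dose (SE 0.12, adjusted p = 3.95e-08). Rictor, the defining subunit of mTORC2, rose by 0.92 at the 10 nm high dose (SE 0.21, adjusted p = 0.00380). Its signal was low, at 3.94 ± 0.14 untreated and 4.87 ± 0.28 at that dose (SD, n = 3). The Rictor change was 0.72 after quantile normalization (adjusted p = 0.0474). Pdcd4, an inhibitor of translation that S6 kinase marks for decay, fell by 0.93 and 0.83 at the high doses (adjusted p = 0.0136 and 0.0315). With quantile normalization its adjusted p was 0.0599 at the 500 nm high dose. After quantile normalization 2 of the list were higher and 2 lower at that dose. Of 15 factors named for ribosomal protein promoters, 1 (Ets2, with a change of 0.27) was higher at the 10 nm high dose, and 1 was higher and 2 were lower at the 500 nm high dose. At the latter Ets2 rose by 0.68, Elf1 fell by 0.86 and Gabpa, the DNA-binding subunit of GABP, fell by 0.46 (adjusted p = 0.0360; 0.129 after quantile normalization).

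The mitochondrial ribosome is made from other genes. Of 74 mitochondrial ribosomal proteins, 0 were higher and 12 lower at the 10 nm high dose (median -0.19), beside 7.58% and 12.6% of all genes, and 1 and 1 at the 500 nm high dose (median 0.14), where 15.3% of all genes were called. Between the high doses 0 were higher and 10 lower with 10 nm particles (median -0.32, against -0.01 over all genes, of which 7.52% were called). After quantile normalization the counts were 1 and 11, 3 and 1, and 0 and 10. Mrps35, a small subunit protein, fell by 0.80 (SE 0.12, adjusted p = 6.88e-05) and Mrpl42 by 0.71 (SE 0.19, adjusted p = 0.0122) at the 10 nm high dose. Mrpl21 rose by 0.32 and Mrps2 fell by 0.37 at the 500 nm high dose. Of the 49 cytosolic members 3 were lower at the 10 nm high dose, and the difference between the lists was not tested.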

How the data were processed

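RNA from 21 samples of RAW 264.7 cells was measured on Affymetrix arrays, 3 per group. The deposited values are one log10 number per probe set and array, made by the authors. The submitters' processing notes name RMA, and its version is not given in the sources used here. The base was taken from the values: the highest deposited value, 4.34, gives an intensity of 22019 in base 10 and of 20.3 in base 2. Values were turned into log2. RMA corrects background and normalizes arrays together, which can shrink differences in overall signal and compress the brightest probe sets. Probe sets with 1 symbol in the platform annotation gave 12393 genes (of 22690 probe sets, 64 are controls, 691 list several symbols and 1606 none), each by its brightest probe set. Group means were fitted to all arrays in limma 3.58.1 (R 4.3.3) with eBayes and Benjamini-Hochberg adjustment, with 14 residual and 4.80 prior degrees of freedom, and a gene was called at an adjusted p under 0.05. Tables and figures used Python 3.11.15 and matplotlib 3.10.9.

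The members and lists were chosen with earlier results of these data known. Genes named with values were the called members of each comparison (up to 5 each way, or the 2 with the smallest p), the 10 members with the smallest p in the F test, paralogs with their parents, members with known further roles, the 3 least and 3 most variable within groups, and up to 2 called genes each way per list and high dose. Rps27a, Rpl5 and Rplp1 met that rule but are not members. Alternatives were quantile normalization, centring arrays, setting a common median and SD, a replicate block, array weights, leaving out genes under the 25th percentile of mean signal, the mean over a gene's probe sets, only the compared groups, and leaving out replicates. Tested on simulated data with 12393 genes, the 10 nm high comparison recovered 37% of 100 changes of 0.5 log2 and 88% of 100 changes of 1 log2, with 7 false calls. The noise was drawn independently for each gene and array, without the shift shared by replicate 3. The changed genes were picked from all genes, so these figures need not hold for the members. The number of arrays limits the precision.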

Additional observations from a re-analysis of the deposited data

Results flagged for a closer look

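Over 2 comparisons of particle sizes, dim probe sets listing a ribosomal protein gene were called different 12 times, each time higher with 10 nm particles (limma, Benjamini-Hochberg over all 22626 probe sets). These were 8 of 203 between the high doses, and 4 of the same 8 at equal nominal surface area. Of all probe sets 6.72% and 2.78% were called, 3.66% and 1.98% as higher with 10 nm particles. As parts of the 203, the 8 and the 4 lay close to the shares called higher. Whether the 203 differ from these shares was not tested. After quantile normalization 2 dim ones were also called lower with 10 nm particles between the high doses. Between the high doses the 10 nm minus 500 nm difference was 0.39 (SE 0.11, adjusted p = 0.0363) and 0.66 (SE 0.16, adjusted p = 0.0162) for a pair of Rps18 probe sets and 0.51 (SE 0.13, adjusted p = 0.0195) for one of Rps10. It was 0.87 (SE 0.19, adjusted p = 0.00815) for one of Rps9 and 1.06 (SE 0.19, adjusted p = 0.00162) for one of Rpl41. Probe sets that list several symbols and could not be assigned differed by 0.96 where Rps13 was among them (SE 0.10, adjusted p = 7.14e-06), by 1.13 with Rpl30 (SE 0.19, adjusted p = 0.000967) and by 1.24 with Rpl3 (SE 0.10, adjusted p = 2.69e-07).

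At equal nominal surface area, the 10 nm mid minus the 500 nm high dose, the difference was 0.61 for the probe set listing Rps13 (SE 0.10, adjusted p = 0.00162), 0.83 for Rps9 (SE 0.19, adjusted p = 0.0213), 0.84 for that listing Rpl30 (SE 0.19, adjusted p = 0.0192) and 1.06 for that listing Rpl3 (SE 0.10, adjusted p = 3.58e-06). These 4 share their 500 nm arrays with the comparison of high doses. All 12 differences stayed positive after quantile normalization, with centred arrays, with a common median and SD, without the 2 arrays that stood apart and without replicate 3 of every group, and 11 or 12 of them stayed called under each of these 5 settings. The 12 were picked because they were called on these same arrays, so staying called under these settings is not independent support. The probe sets listing Rps13 and Rpl3 were called higher than untreated at the 10 nm high dose, by 0.60 and 0.60, and lower at the 500 nm high dose, by 0.36 and 0.64 on the log2 scale.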

How the results depend on the processing

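Of the counts of called members over all comparisons and alternatives, 170 stayed within 1.5 times of their value and 51 did not. In the F test 1 member was called: 2 with centred arrays, 3 with a common median and SD, 8 with array weights, 3 with the mean over probe sets, and 1 to 2 leaving out 1 array. At the 10 nm mid dose (1) the counts were 2 centred, 2 with a common median and SD, 4 weighted, 2 with the probe-set mean, 0 without replicate 3 of every group and 2 without the 2 arrays that stood apart. At the 10 nm high dose (4) they were 1 after quantile normalization, 2 centred, 22 with a common median and SD, 11 weighted, 2 without the 2 arrays, 0 with only the compared groups, and 2 to 4 leaving out 1 array. Of all genes 15.8% were called at that dose after quantile normalization, 21.2% with a common median and SD and 13.2% without the 2 arrays. The 10 nm mid dose without these arrays had 10.8%. At the 500 nm mid dose (0) weights gave 2. At the 500 nm high dose (1) the counts were 2 centred, 16 with a common median and SD, 10 weighted, 2 with the 25th percentile filter, 2 with the probe-set mean, 0 without replicate 3 of every group and 0 with only the compared groups. With a common median and SD 18.3% of all genes were called at that dose. Shares under the remaining settings are not given here.

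For the 10 nm slope (2) they were 1 after quantile normalization, 1 centred (Rpsa, upward), 8 weighted, 1 with only the compared groups and 0 to 2 leaving out 1 array. For the 500 nm slope (0) they were 2 centred, 3 with a common median and SD, 4 weighted, 1 with the filter, 2 without the 2 arrays and 0 to 1 leaving out 1 array. The mid 10 nm against the high 500 nm dose (0) gave 1 weighted, and the high doses (0) gave 2 weighted and 1 with the probe-set mean. Rps27l at the 10 nm high dose turned to 0.063 (adjusted p = 0.689) with a common median and SD. The causes were not tested. The array weights stopped before their convergence tolerance, and the shares of all genes called with them are not given.

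Replicate numbers were not taken to pair the arrays: correlations of deviations from group means ran from -0.24 to 0.53 for number 1, 0.12 to 0.72 for number 2 and 0.42 to 0.76 for number 3, and 12 of 21 arrays correlated best with one of their own number. With the replicate block 3 members were called in the F test, 3 at the 10 nm mid and 3 at the 500 nm high dose (Rpl12, Rpl14 and Rpl3l each time), 5 at the 10 nm high dose (Rpl22l1 added) and 2 on the 500 nm slope (Rpl39 and Rps6), beside 32.4%, 18.0%, 27.7%, 36.7% and 15.5% of all genes.

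With 3 arrays per group, changes of 0.5 log2 in genes picked from all those measured were often missed in simulated data. Saturation near the top of the scale was not tested, and 27 ribosomal protein genes could not be assigned a probe set of their own.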
